A study of Mus musculus with 6 samples.

Results

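The 52 splicing regulators described here are genes whose symbols start with Srsf or Hnrnp, together with the PTB proteins and a fixed set of neuronal and alternative splicing factors. They were chosen by symbol, through the RefSeq gene table that names the array's probes. The rule uses no measured values, but it was set with earlier results of these data known. The members make up 52 of the 20145 genes named on the array and 94 of its 55681 probes. All 52 genes and all 94 probes passed the filter on dim signals. Of 56 symbols in the gene table that match the rule, Srsf11, Srsf3-ps, Hnrnpa1l2-ps and Hnrnpa1l2-ps2 had no probe named by accession. The members fall into 10 SR proteins, 3 SR-related activators (Tra2a, Tra2b and Srrm2), 20 hnRNP proteins, 3 PTB proteins and 16 neuronal and alternative splicing factors.

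RNA was measured in cortical cells of mouse embryos whose mothers had been given phenobarbital, a sedative and antiepileptic that acts on GABA-A receptors, or saline. The phenobarbital group (3 arrays) came from C57BL/6N dams injected with 80 mg/kg in saline, as pairs of injections separated by 6 h, between embryonic days 10 and 11. The control group (3 arrays) came from C57BL/6N dams given saline on the same schedule. In both groups the cortex was taken at embryonic day 12 by the protocol (E12.5 in the sample labels), dissociated and plated, and total RNA was isolated 4 h after plating. The labels call the cells neural progenitor cells but name no sort, and no label ties a replicate to its own litter or culture, so the p-values reflect the spread of these 6 samples, part of which may be technical.

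SR proteins carry domains rich in serine and arginine, bind exonic enhancers and help the spliceosome to include an exon, while many hnRNP proteins bind silencers and favour skipping. In the developing cortex PTBP1, the form of progenitors, holds back neuronal exons, and PTBP2, NOVA, RBFOX, ELAVL and SRRM4 proteins take part in the change of splicing as progenitors become neurons. Several SR and hnRNP genes also hold poison exons, whose inclusion sends the transcript to nonsense-mediated decay.

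Values are log2 signals relative to the 75th percentile of the same array, and differences are phenobarbital minus control. That percentile was 1803 to 1862 on the phenobarbital arrays and 1116 to 1291 on the control arrays. Before this scaling the mean signal was higher with phenobarbital for 51 of the 52 members, with a median ratio of 1.25 (range 0.929 to 2.36), so every fall given here is a fall relative to the other signals of the array. Control replicate 1 shared a slide with the 3 phenobarbital arrays (slide 1), each other control array had a slide of its own, and scan times divided the arrays likewise. The 25304 entries tested were 15181 gene symbols and 10123 accessions that have no symbol in the gene table, each with 1 probe. Over all entries the median log2 difference was -0.16, also over the gene symbols alone, and 1580 entries rose and 2654 fell (limma, adjusted p below 0.05). The falls were 62.7% of these calls, against 45.4% after quantile normalization, 41.6% after scaling to the median, 40.6% with the percentile of only those probes that all arrays detected, and 75.6% with normexp.

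All 11 progenitor markers were above background on every array and so were all 15 neuron markers, Tbr1 and Stmn2 among them. The summed level of the neuron markers, in multiples of the array's 75th percentile, was 247 to 280 on the phenobarbital arrays and 358 to 384 on the control arrays, and 4 of the 15 fell and none rose. The progenitor markers summed to 353 to 408 with phenobarbital and 455 to 505 in controls (1 of 11 fell, none rose). Choroid plexus markers summed to 11.7 to 23.0 with phenobarbital and 1.88 to 4.08 in controls (5 of 6 tested rose). Red blood cell markers summed to 606 to 656 with phenobarbital and 937 to 1370 in controls (5 of 8 fell), and mural and meningeal markers to 30.9 to 37.4 with phenobarbital and 54.9 to 59.6 in controls (6 of 8 fell). Endothelial markers summed to 41.9 to 48.8 with phenobarbital and 70.1 to 81.2 in controls (4 of 7 fell). Microglia markers went both ways (3 of 7 fell, 1 rose). Their sums overlapped, with 8.65 to 11.3 with phenobarbital and 8.42 to 10.8 in controls. The part of these markers in the results on splicing regulators was not tested, and in bulk RNA fewer cells of a type and less RNA per cell cannot be told apart.

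Among the 52 members, 2 rose with phenobarbital, 5 fell and 45 did not pass (limma, two-sided, adjusted p below 0.05 over all entries). Hnrnpk and Srsf5 rose, and Khdrbs1, Ptbp2, Hnrnpa2b1, Elavl2 and Hnrnpu fell. Of all entries tested 16.7% were called, 6.24% upward and 10.5% downward, and of the gene symbols alone 17%, 7.25% upward and 9.76% downward, so the members' 7 calls lie near that background. The members' median difference was -0.29, lower than that of all entries by 0.13, and 44 of the 52 differences were negative. The members' median minus that of all entries, -0.13, was -0.06 with normexp and after quantile normalization. Of all entries 68% had a negative difference. The groups did not overlap for 27 of the 52 members, against 44.1% of all entries and 46.6% of the gene symbols.

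**Figure D1:**
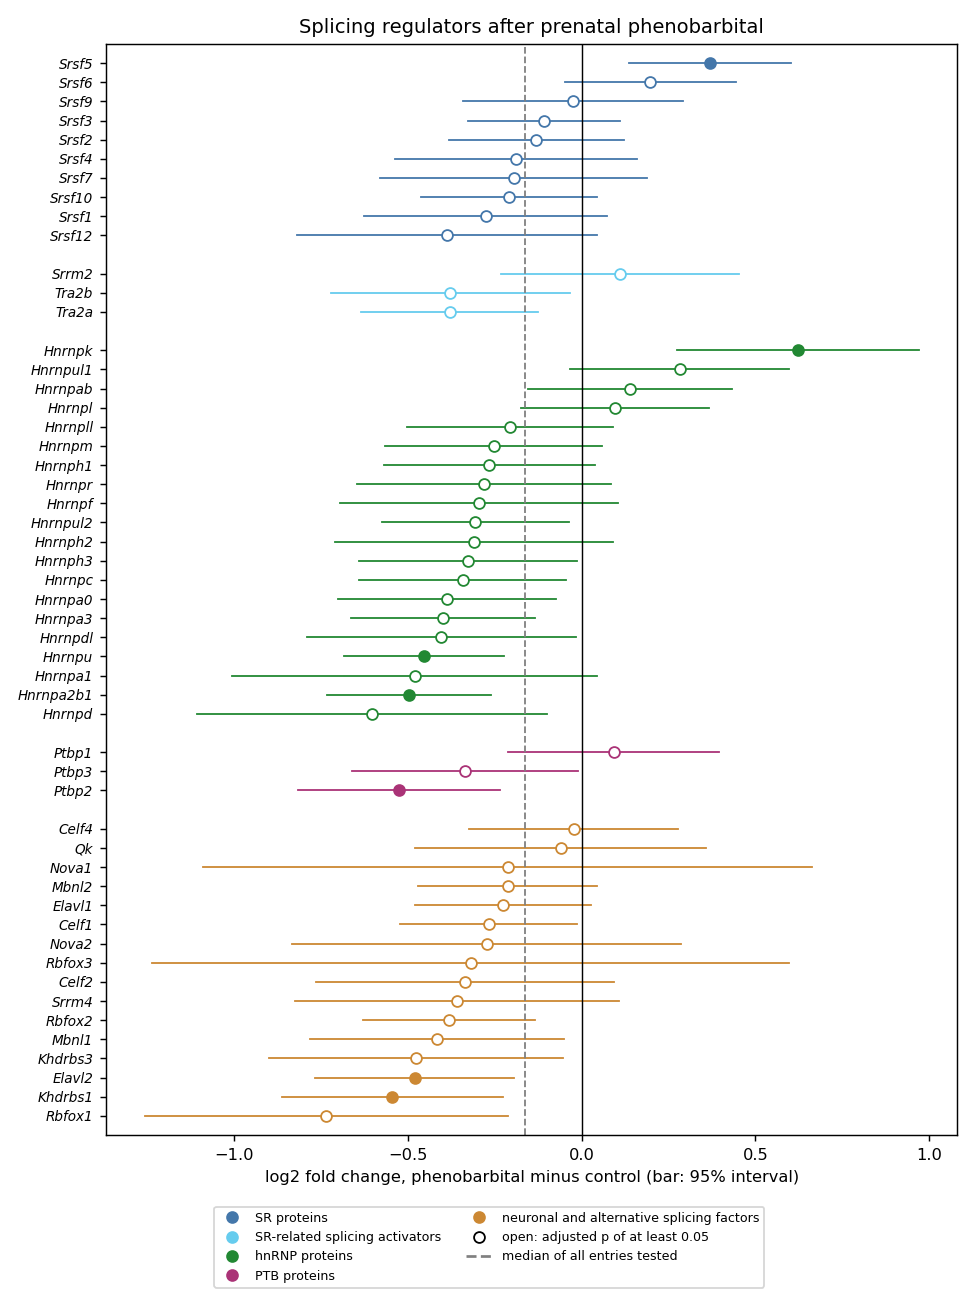
Log2 fold change of each of the 52 splicing regulators, phenobarbital minus control (x axis; points: estimate, bars: 95% interval, n = 3 arrays per group), grouped by family. Filled points passed an adjusted p below 0.05, and the dashed line marks the median of all entries tested, -0.16. Most members lie left of 0, and Hnrnpk stands at the right-hand end. Negative values number 44 of 52 here and 36 of 52 after quantile normalization.

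Most members gave high signals, and entries of high signal as a whole had lower differences. When all tested entries were ordered by mean signal, 37 of the 52 members lay in the highest quartile. In that quartile the median difference of all entries was -0.25 and that of the members -0.28. There 31 of the 37 members were negative, and 83.7% of all entries of the quartile were. Of the 37, 4 fell and 2 rose, where 16.7% of all entries of the quartile fell and 2.78% rose. In the third quartile the 14 members had a median of -0.31 and all entries -0.14. Of the 14, 12 were negative and 1 fell, where 66.8% of all entries of the quartile were negative and 9.42% fell. The second quartile held Srsf12 alone (-0.39), and the lowest held no member.

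**Figure D2:**
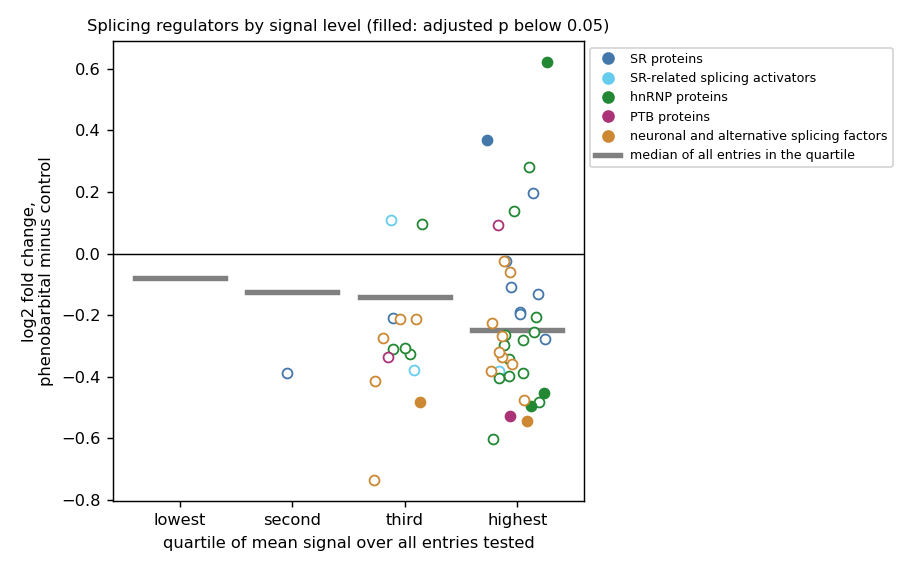
Log2 fold change of each splicing regulator (y axis, phenobarbital minus control) by the quartile of mean signal in which it lies among all entries tested (x axis). Each point is a gene coloured by family, filled where the adjusted p is below 0.05, and grey bars are the medians of all entries of a quartile. In the highest quartile the members' median of -0.28 lies beside the median of all entries there, -0.25.

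Promoters are shown for 4 of the members that passed, as the DNA from which the 2 rises (Hnrnpk, Srsf5) and 2 of the falls (Ptbp2, Hnrnpu) start. Each line gives the 250 bases before the transcription start, 5′ to 3′ on the gene's strand, from RefSeq (GRCm38.p6), with matches to the searched motifs in capitals. The windows lie at chr3:119783389-119783638 (minus strand, Ptbp2), chr1:178337816-178338065 (minus, Hnrnpu), chr13:58402118-58402367 (minus, Hnrnpk) and chr12:80945249-80945498 (plus, Srsf5).
Ptbp2: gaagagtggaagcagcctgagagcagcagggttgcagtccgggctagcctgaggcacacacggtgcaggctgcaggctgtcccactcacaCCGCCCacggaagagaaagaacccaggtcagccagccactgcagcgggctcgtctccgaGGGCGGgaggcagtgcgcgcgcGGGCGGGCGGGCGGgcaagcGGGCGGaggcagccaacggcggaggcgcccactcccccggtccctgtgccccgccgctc
Hnrnpu: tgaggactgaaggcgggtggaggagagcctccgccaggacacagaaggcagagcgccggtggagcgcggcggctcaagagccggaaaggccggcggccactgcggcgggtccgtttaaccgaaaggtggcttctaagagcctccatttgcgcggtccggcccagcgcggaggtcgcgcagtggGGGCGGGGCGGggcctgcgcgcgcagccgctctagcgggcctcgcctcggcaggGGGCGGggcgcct
Hnrnpk: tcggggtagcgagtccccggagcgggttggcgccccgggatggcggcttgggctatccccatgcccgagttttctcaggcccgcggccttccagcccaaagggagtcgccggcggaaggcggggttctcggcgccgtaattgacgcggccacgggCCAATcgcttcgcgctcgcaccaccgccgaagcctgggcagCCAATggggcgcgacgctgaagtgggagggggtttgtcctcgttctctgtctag
Srsf5: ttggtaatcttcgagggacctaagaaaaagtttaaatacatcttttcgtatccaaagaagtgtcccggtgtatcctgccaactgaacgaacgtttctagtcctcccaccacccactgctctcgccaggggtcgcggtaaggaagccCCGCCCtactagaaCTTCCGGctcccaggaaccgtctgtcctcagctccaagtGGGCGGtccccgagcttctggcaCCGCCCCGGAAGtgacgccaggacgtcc
The motifs searched, on both strands, were the GC box (GGGCGG), the CCAAT box (CCAAT), the TATA box (TATAAA) and an ETS motif (CCGGAAG), and matches may overlap, as the last GC box and the last ETS match of Srsf5 do. The Ptbp2 window holds 6 GC boxes and the Hnrnpu window 3. The Hnrnpk window holds no GC box and 2 CCAAT boxes, and that of Srsf5 holds 3 GC boxes and 2 ETS matches. Among the falls not shown, each Hnrnpa2b1 window holds no GC box and 1 CCAAT box. The Elavl2 windows hold 0 to 3 GC boxes, and Khdrbs1 has no window. Over the 68 windows of the 45 members in the RefSeq promoter table, 67.6% held a GC box, against 32.7% of all 32851 windows. Overlapping windows of a gene were each counted, and all windows cover 27025 genes, whether or not the arrays detected them. A CCAAT box was in 45.6% of the members' windows and 33.8% of all, the ETS motif in 10.3% and 6.91%, and a TATA box in 7.35% and 12.4%. The members' windows had a median GC content of 62.6%, against 52.4% of all windows, and a median ratio of observed to expected CpG of 0.88 against 0.37. Whether windows of rises and falls differ in these motifs was not tested, and the matches are letters in a window, not measured binding.

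The 10 SR proteins held 1 rise and no fall, where 6.24% of all entries rose and 10.5% fell. At an unadjusted p below 0.05 limma also found no fall among them. Without adjustment 9030 of the 25304 entries tested had a p below 0.05, in either direction. The family's median difference was -0.16, the same as that of all entries, and 0.02 after quantile normalization. Srsf5, an SR protein that binds exonic enhancers, stood at 3.64, 3.65 and 3.65 on the phenobarbital arrays and at 3.21, 3.36 and 3.26 on the control arrays. All phenobarbital arrays lay above all control arrays, and the rise was 0.37 ± 0.10 (SE, n = 3 per group), 1.29-fold (95% interval 1.10 to 1.52; limma, adjusted p = 0.0475). Srsf3, the smallest SR protein and a factor in RNA export, had 4.93, 4.97 and 4.93 with phenobarbital and 5.06, 5.08 and 5.01 in controls (-0.11 ± 0.09, adjusted p = 0.431). Srsf7, which also takes part in export, had 5.55, 5.56 and 5.12 with phenobarbital and 5.62, 5.45 and 5.75 in controls (-0.20 ± 0.16, adjusted p = 0.416). The groups of Srsf3 did not overlap although its difference was within the error of the test, and those of Srsf7 did. Srsf4 had 4.29, 4.32 and 4.03 with phenobarbital and 4.51, 4.18 and 4.53 in controls (-0.19 ± 0.14, adjusted p = 0.387). The other SR proteins (Srsf1, Srsf2, Srsf6, Srsf9, Srsf10 and Srsf12) lay between -0.39 and 0.20 and did not pass.

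None of the 3 SR-related activators passed by limma, while 2 of the 3 had a negative difference with an unadjusted p below 0.05. So low an unadjusted p was found for 9030 of the 25304 entries tested, in either direction. Tra2a, which binds GAA-rich enhancers, stood at 5.08, 5.25 and 5.13 with phenobarbital and at 5.64, 5.48 and 5.49 in controls. Its groups did not overlap and its difference of -0.38 ± 0.11 lay just short of the threshold (limma, adjusted p = 0.0556). Its paralogue Tra2b, which controls its own poison exon, had -0.17, 0.07 and -0.18 with phenobarbital and 0.36, 0.05 and 0.44 in controls (-0.38 ± 0.14, adjusted p = 0.114). Srrm2, a large scaffold of nuclear speckles, had 0.04, -0.11 and 0.26 with phenobarbital and 0.11, -0.03 and -0.21 in controls (0.11 ± 0.14, adjusted p = 0.615).

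Of the 20 hnRNP proteins 1 rose, 2 fell and 17 did not pass, where 6.24% of all entries rose and 10.5% fell. The family's median difference was -0.31, and -0.08 after quantile normalization. Hnrnpk, a KH-domain protein that binds C-rich RNA and DNA, had the highest difference of any member. It stood at 3.04, 3.07 and 3.46 with phenobarbital and at 2.53, 2.51 and 2.67 in controls, with no overlap. The rise was 0.62 ± 0.14, 1.54-fold (95% interval 1.21 to 1.96; limma, adjusted p = 0.0371). Another Hnrnpk probe had 2.35, 2.46 and 2.75 with phenobarbital and 1.57, 1.46 and 1.71 in controls, a rise of 0.94 ± 0.14 (limma over all probes, adjusted p = 0.0127). Both probes of this gene therefore rose. Hnrnpa2b1, an RNA carrier and splicing repressor that also binds methylated RNA, stood at 4.38, 4.55 and 4.50 with phenobarbital and at 4.96, 4.96 and 4.99 in controls. It fell by 0.50 on the log2 scale (SE 0.10), 1.41-fold lower (95% interval 1.20 to 1.66; limma, adjusted p = 0.0256), and its other probe had a difference of -0.39 ± 0.11 (adjusted p over all probes 0.0569). Hnrnpu, which binds chromatin-associated RNA, had 4.03, 4.05 and 4.06 with phenobarbital and 4.53, 4.55 and 4.42 in controls. It fell by 0.45 (SE 0.10), 1.37-fold lower (95% interval 1.17 to 1.61; limma, adjusted p = 0.0294). In both genes every phenobarbital array lay below every control array.

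**Figure D3:**
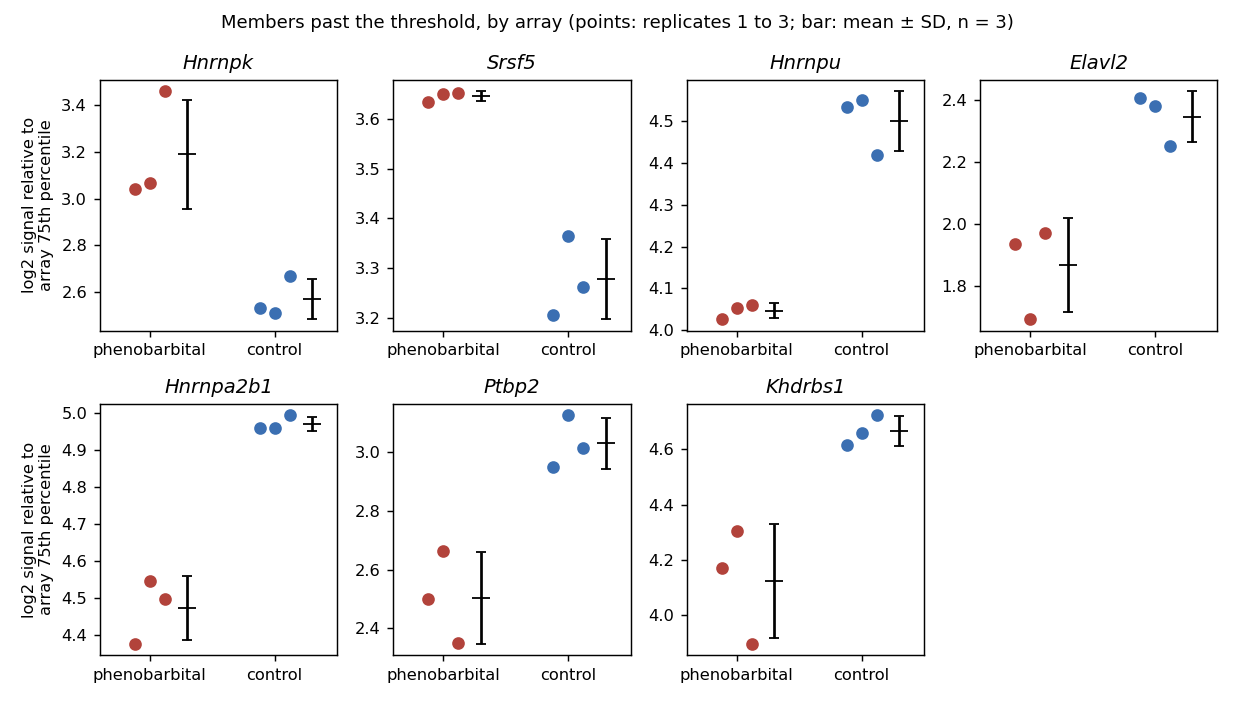
Log2 signal relative to the array's 75th percentile (y axis) for the 7 members past the threshold, with phenobarbital arrays left and control arrays right in each panel (points: replicates 1 to 3; bar: mean ± SD, n = 3). The groups do not overlap in any panel; Hnrnpk and Srsf5 are higher with phenobarbital and the other 5 lower.

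The brightest hnRNP probes did not pass. Hnrnpa3, a close relative of Hnrnpa1, had 7.54, 7.56 and 7.32 with phenobarbital and 7.91, 7.88 and 7.82 in controls (-0.40 ± 0.11, limma, adjusted p = 0.0544). Hnrnpc, which counts the length of nascent RNA and keeps Alu repeats from being spliced in as exons in human cells, had 6.50, 6.59 and 6.47 with phenobarbital and 6.77, 7.06 and 6.75 in controls (-0.34 ± 0.12, adjusted p = 0.102). Hnrnph1, which binds G-runs, had 6.32, 6.57 and 6.30 with phenobarbital and 6.81, 6.59 and 6.59 in controls (-0.27 ± 0.13, adjusted p = 0.184). The groups of none of these 3 genes overlapped. Hnrnpa1, the best known silencer-binding hnRNP protein, had 5.88, 5.94 and 5.27 with phenobarbital and 6.27, 5.91 and 6.35 in controls (-0.48 ± 0.22, adjusted p = 0.168). Hnrnpab had 6.40, 6.34 and 6.49 with phenobarbital and 6.27, 6.10 and 6.44 in controls (0.14 ± 0.12, adjusted p = 0.449), and the groups of both genes overlapped. The other 12 hnRNP genes lay between -0.60 (Hnrnpd) and 0.28 (Hnrnpul1), and none passed.

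The PTB proteins bind pyrimidine-rich tracts, and PTBP1 makes the Ptbp2 transcript skip an exon, which sends it to decay. Ptbp2, the form of young neurons, stood at 2.50, 2.66 and 2.35 with phenobarbital and at 2.95, 3.13 and 3.01 in controls, with no overlap. It fell by 0.53 (SE 0.12), 1.44-fold lower (95% interval 1.18 to 1.76; limma, adjusted p = 0.036). Ptbp1 had 4.06, 4.06 and 4.32 with phenobarbital and 4.20, 4.01 and 3.96 in controls, and its groups overlapped (0.09 ± 0.13, adjusted p = 0.635). Another Ptbp1 probe had 1.66, 1.59 and 1.63 with phenobarbital and 1.26, 0.83 and 1.02 in controls, a rise of 0.59 ± 0.14 (limma over all probes, adjusted p = 0.037). The difference Ptbp2 minus Ptbp1 within an array, on the tested probes, averaged -1.64 ± 0.30 with phenobarbital and -1.02 ± 0.19 in controls (SD, n = 3 each). All 3 phenobarbital arrays lay below all 3 control arrays (two-sided exact permutation p = 0.1, the lowest value possible with 3 arrays a group). With 3 arrays a group this test cannot reach 0.05, so an unequal change of the genes is not shown. The quantity, being taken from different probes, says nothing of which transcript was more abundant. Ptbp3 had 1.14, 1.02 and 1.09 with phenobarbital and 1.47, 1.60 and 1.18 in controls (-0.33 ± 0.14, adjusted p = 0.132).

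All 16 neuronal and alternative splicing factors had a negative difference. So had 68% of all entries, and 83.7% of those in the highest quartile of signal. The 16 became 15 after scaling to the median, 14 with the percentile of probes detected on all arrays and 13 after quantile normalization. Of the 16, 2 fell, none rose and 14 did not pass, where 10.5% of all entries fell and 6.24% rose. The family's median was -0.33, and -0.22 after quantile normalization. Khdrbs1 (Sam68), a STAR-family protein that controls neurexin splicing, stood at 4.17, 4.30 and 3.90 with phenobarbital and at 4.62, 4.66 and 4.72 in controls. It fell by 0.54 (SE 0.13), 1.46-fold lower (95% interval 1.17 to 1.82; limma, adjusted p = 0.0403). Elavl2 (HuB), a neuronal binder of AU-rich RNA, had 1.94, 1.69 and 1.97 with phenobarbital and 2.41, 2.38 and 2.25 in controls. It fell by 0.48 (SE 0.12), 1.40-fold lower (95% interval 1.14 to 1.70; limma, adjusted p = 0.0418). Neither gene's groups overlapped.

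The RBFOX proteins bind GCAUG and set the splicing of neuronal channels and adhesion molecules. Rbfox1 had the lowest difference of any member, with 0.14, 0.02 and -0.54 with phenobarbital and 0.44, 0.49 and 0.88 in controls (-0.73 ± 0.22, limma, adjusted p = 0.0639). Another Rbfox1 probe had -1.36, -1.69 and -1.72 with phenobarbital and -1.06, -0.91 and -0.40 in controls, a fall of 0.80 (SE 0.20, limma over all probes, adjusted p = 0.0467). Rbfox2 had 2.72, 2.80 and 2.76 with phenobarbital and 3.1, 3.26 and 3.06 in controls (-0.38 ± 0.10, adjusted p = 0.0518). The groups of both genes did not overlap, and both tested probes lay just short of the threshold. Rbfox3, the neuronal antigen NeuN, had 3.19, 3.14 and 2.39 with phenobarbital and 3.47, 2.45 and 3.74 in controls (-0.32 ± 0.38, adjusted p = 0.583), and its low control array, replicate 2, lay among the phenobarbital arrays.

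The remaining neuronal factors did not pass. Nova1, a KH-domain binder of YCAY clusters, had -0.45, 0.82 and -0.36 with phenobarbital and 0.12, 0.56 and -0.04 in controls (-0.21 ± 0.36, limma, adjusted p = 0.71). Nova2, its paralogue in the neocortex, had 1.0, 1.33 and 1.24 with phenobarbital and 1.17, 1.97 and 1.25 in controls (-0.27 ± 0.23, adjusted p = 0.436). In both, replicate 2 was the highest array of each group. Srrm4, the activator of neuronal microexons, had 2.49, 2.66 and 2.25 with phenobarbital and 2.86, 2.50 and 3.13 in controls (-0.36 ± 0.19, adjusted p = 0.23). Khdrbs3, another STAR protein, had 4.01, 4.00 and 3.45 with phenobarbital and 4.18, 4.32 and 4.38 in controls (-0.48 ± 0.18, adjusted p = 0.107), with no overlap. Celf2, a binder of GU-rich RNA, had 4.74, 4.62 and 4.37 with phenobarbital and 5.09, 4.59 and 5.06 in controls (-0.33 ± 0.18, adjusted p = 0.225). Celf4 had 3.28, 3.40 and 3.11 with phenobarbital and 3.16, 3.28 and 3.42 in controls, one of the smallest differences among the members (-0.02 ± 0.13, adjusted p = 0.916). Elavl1 (HuR), the ubiquitous member of its family, had 5.07, 5.11 and 4.98 with phenobarbital and 5.29, 5.38 and 5.18 in controls (-0.23 ± 0.10, adjusted p = 0.174). Qk, the quaking STAR protein of glia and progenitors, had 3.03, 3.22 and 2.87 with phenobarbital and 3.37, 2.81 and 3.12 in controls (-0.06 ± 0.17, adjusted p = 0.833). Celf1, Mbnl1 and Mbnl2 had differences of -0.27, -0.41 and -0.21 and did not pass.

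None of the 7 calls held within slide 1, where the 3 phenobarbital arrays face control replicate 1 alone, though each kept its sign. There the differences were 0.66 for Hnrnpk, 0.44 for Srsf5, -0.54 for Elavl2, -0.49 for Khdrbs1 and Hnrnpu, -0.48 for Hnrnpa2b1 and -0.45 for Ptbp2 (limma with the slide as a block, adjusted p = 0.169 to 0.248). That block also left 3.05% of all entries called. With the slide as a random block 3 of the 7 passed (Hnrnpa2b1, Hnrnpu and Hnrnpk). Leaving out any array other than control replicate 2 left none of the 7 past the threshold, and without it 3 of the 7 passed (Hnrnpa2b1, Hnrnpu and Srsf5). These fits have 1 array fewer and called fewer entries in all, except without control replicate 2.

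The probes of a gene often disagreed. Of 29 members with several probes, 15 had probes with differences of opposite sign (51.7%), as had 45.1% of all 3980 such genes. When every probe was tested on its own, 9 of the members' 94 probes rose and 7 fell, in 7 genes each, where 6.97% of all probes rose and 8.74% fell. Srsf5 did not pass there (adjusted p over all probes 0.0527). Besides the probes already given, the probes that rose in these fits were of Srsf3, Hnrnpa1, Hnrnpa3, Hnrnpc and Qk, and an Hnrnpab probe fell.

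**Figure D4:**
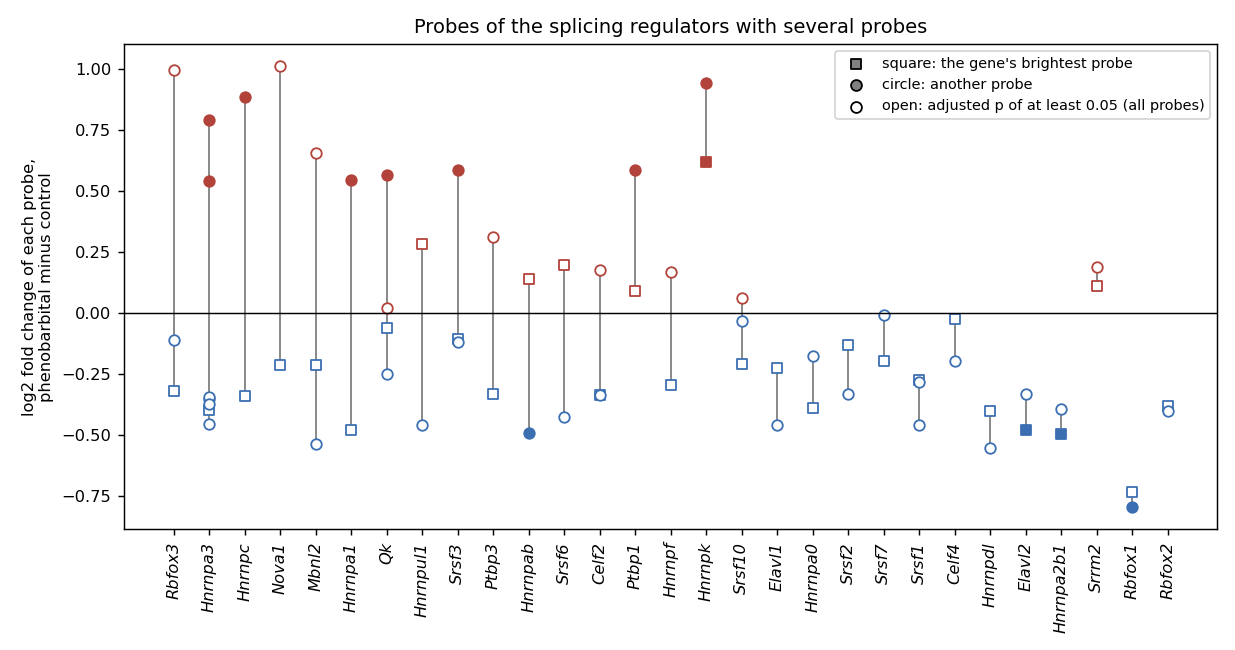
Log2 fold change of every probe (y axis, phenobarbital minus control) of the 29 splicing regulators with several probes (x axis). Squares are the probe tested for the gene, circles its other probes, and filled symbols passed an adjusted p below 0.05 over all probes. Lines join the probes of a gene and cross 0 for 15 of the 29.

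To set the probes of a gene against each other, the gene's tested probe was subtracted from each of its other probes on the same array. This removes a constant of the array, but not a difference between arrays that varies with signal level. The difference between probes was then compared between groups. This comparison was added after the probes' values were seen. It passed for 12 of the members' 42 probe pairs, in 11 genes (limma, adjusted p below 0.05 over all 4780 pairs on the array), where 24.8% of all pairs passed. Of all pairs that passed, 86.3% moved in favour of the dimmer probe with phenobarbital, and so did 10 of the members' 12. The members' median was 0.09, against 0.19 for all pairs. Both the share and the direction lay near those of all pairs. After quantile normalization 23.1% of all pairs passed, and 9 of the members' 42, 6 of them in favour of the dimmer probe. Their median was then 0.001, against 0.14 for all pairs. With normexp 9 of the 42 passed, 7 of them in favour of the dimmer probe, where 21.7% of all pairs passed.

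Srsf3 had the most evenly separated pair. The difference of its probe A_55_P2177614 from the tested probe A_55_P1980125 was -0.13, -0.08 and -0.06 with phenobarbital and -0.78, -0.73 and -0.85 in controls, a shift of 0.69 ± 0.09 (limma, adjusted p = 0.00409). By itself that probe had 4.79, 4.89 and 4.87 with phenobarbital and 4.28, 4.35 and 4.16 in controls, a rise of 0.59 ± 0.10 (adjusted p over all probes 0.0197), while the tested probe did not pass. The pair kept its call without any single array (adjusted p = 0.00608 to 0.0221), and with the slide as a block its shift was 0.68 (adjusted p = 0.0516). Srsf6, another SR protein, had a shift of -0.62 ± 0.15 (adjusted p = 0.0288), the opposite way.

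Among the hnRNP genes Hnrnpa3 had 7 probes. The 5 under the same RefSeq transcript as the tested probe had differences between groups of -0.34 to -0.46, and none passed. The 2 under another RefSeq transcript rose by 0.79 ± 0.20 and 0.54 ± 0.12 (limma over all probes, adjusted p = 0.0449 and 0.0321). Against the tested probe these 2 shifted by 1.19 ± 0.26 and 0.94 ± 0.14 (adjusted p = 0.0211 and 0.00622). The second of them read -5.61, -5.68 and -5.34 relative to the tested probe with phenobarbital and -6.40, -6.66 and -6.38 in controls, and it kept its call without any single array. A Hnrnpa1 probe under another RefSeq transcript rose by 0.55 ± 0.11 (adjusted p = 0.0252) and shifted by 1.03 ± 0.26 against the tested one (adjusted p = 0.0352). Hnrnpa1 and Hnrnpa3 belong to families with near-identical copies, so how far these probes share signal with such copies was not tested.

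The Hnrnpc pair, under a single RefSeq transcript, differed by -2.65, -2.98 and -2.16 with phenobarbital and by -3.68, -3.84 and -3.95 in controls, a shift of 1.23 ± 0.22 (limma, adjusted p = 0.0114), and the call held without any single array. Its other probe alone rose by 0.89 ± 0.21 (adjusted p = 0.0405). Hnrnpab shifted by -0.63 ± 0.14 (adjusted p = 0.0208), and that probe fell by 0.49 (SE 0.12, adjusted p = 0.0404). The Hnrnpk probes, both of which rose, differed between groups by 0.32 ± 0.09 (adjusted p = 0.0478).

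**Figure D5:**
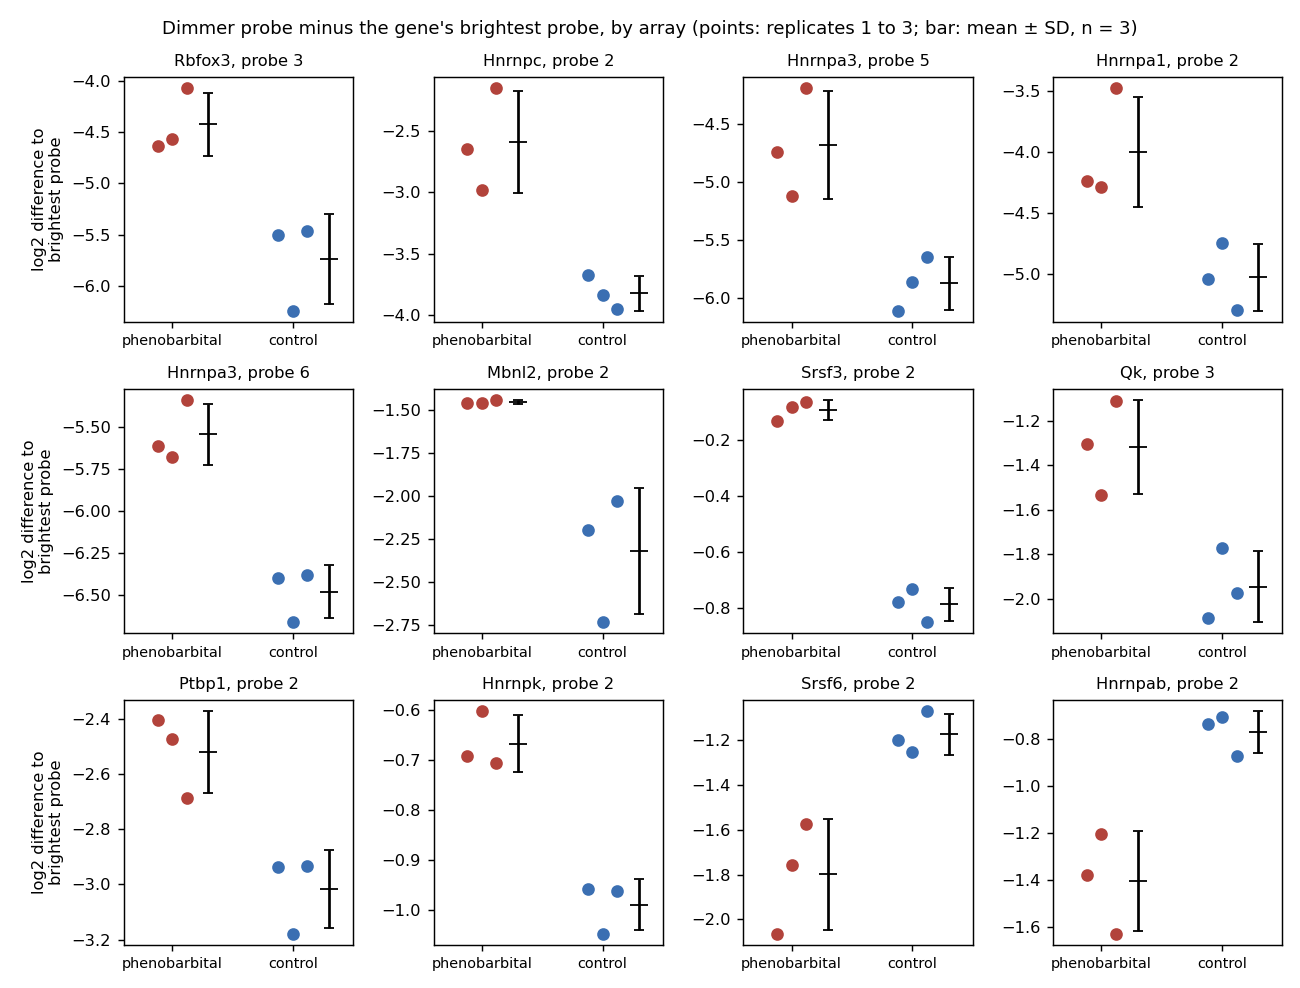
Log2 difference of another probe of the gene from its tested probe on the same array (y axis) for the 12 pairs that passed, with phenobarbital arrays left and control arrays right (points: replicates 1 to 3; bar: mean ± SD, n = 3). The groups do not overlap in any panel, and the difference is higher with phenobarbital in 10 of the 12 and lower for Srsf6 and Hnrnpab.

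Among the PTB and neuronal factors, the Ptbp1 pair shifted by 0.50 ± 0.13 (limma, adjusted p = 0.0359) and a Qk pair by 0.63 ± 0.15 (adjusted p = 0.029), where the Qk probe itself rose by 0.57 ± 0.11 (adjusted p = 0.0241). A Ptbp3 pair lay just outside the threshold (0.65 ± 0.19, adjusted p = 0.0508). Rbfox3 had a probe under another RefSeq transcript that shifted by 1.31 ± 0.26 against the tested one (adjusted p = 0.0166), although neither probe passed alone. Mbnl2, a muscleblind protein that binds YGCY motifs, had 3 probes. One of them read -1.46, -1.46 and -1.44 relative to the tested probe with phenobarbital and -2.20, -2.73 and -2.03 in controls, a shift of 0.87 ± 0.19 (adjusted p = 0.0227). It was the only one of the 12 pairs to pass with the slide as a block (0.74, adjusted p = 0.0431), and the remaining Mbnl2 probe had a shift of -0.32, the other way, that did not pass. The files give no probe sequences or positions within transcripts that were used here, so the exons that these probes read are not stated.

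The other genes of the splicing pathway gave calls in both directions. The list of 52 tested core spliceosome genes had 5 rises, 5 falls and a median of -0.20, and its other 42 genes did not pass. Of all entries 6.24% rose and 10.5% fell. The difference was negative for 43 of the 52, and for 68% of all entries. Eftud2, the GTPase of the U5 particle, rose by 1.56 ± 0.10 (limma, adjusted p = 0.00201). It stood at 2.59, 2.62 and 2.66 with phenobarbital and at 1.0, 1.14 and 1.04 in controls. Prpf19, the ubiquitin ligase of the activated spliceosome, rose by 1.38 ± 0.18, and Usp39, needed for tri-snRNP entry, by 0.77 ± 0.12 (adjusted p = 0.00898 and 0.0154). Snrpb2 of the U2 particle fell by 0.46 (SE 0.10, adjusted p = 0.028).

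Of 9 tested SR kinases and import factors 2 rose and 1 fell, with a median of -0.12, where 6.24% of all entries rose and 10.5% fell. The kinases Clk3 and Srpk1, which phosphorylate SR proteins, rose by 0.93 ± 0.22 and 0.79 ± 0.18, and Clk4 fell by 0.45 (SE 0.10; limma, adjusted p = 0.0375, 0.0331 and 0.0321). Of 41 other RNA-binding splicing factors none rose and 7 fell, against the same 6.24% and 10.5% of all entries, with a median of -0.29. Elavl4 and Elavl3, the neuronal relatives of Elavl2, fell by 0.70 (SE 0.10) and 0.65 (SE 0.14), Matr3, a nuclear matrix protein that works with PTBP1, by 0.59 (SE 0.12), and Rbm39, a U2AF-related factor, by 0.47 (SE 0.10; adjusted p = 0.0114, 0.0303, 0.0275 and 0.0306). Elavl2, Elavl3 and Elavl4 are also expressed mainly in neurons, whose markers summed lower with phenobarbital, as given above, and the part of neuron content in their falls was not tested. None of 10 factors of nonsense-mediated decay passed by limma, with a median of -0.23, and at an unadjusted p below 0.05 there were 3 falls and 1 rise. Without adjustment 9030 of the 25304 entries tested were below 0.05 too (limma, either direction).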

How the data were processed

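Cy3-labelled RNA of 3 phenobarbital and 3 control samples was measured on 1-colour Agilent arrays. The authors quantified the scans with Agilent Feature Extraction, version 10.7.3.1 per the file headers and 10.7 in the submitters' processing notes. The deposited spot intensities are linear, with background and spatial trend removed by the software and no scaling between arrays, and their headers name mm9. The authors' value table holds log2 values, which matched the deposited scanner signals in scale and direction, with each probe centred on an unknown constant, and its column medians ran from -0.09 to 0.10.

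From the 59305 non-control spots of each array, log2 of the processed signal minus the array's 75th percentile was taken, with outlier spots missing and replicate spots averaged. Software flags on background and outliers were used as deposited by the authors. Of 55681 probes, 34673 passed the filter (in 1 group or both, each array well above background). Names came from accessions through RefSeq (GRCm38.p6). The probe of highest mean signal stood for a gene. The 25304 resulting names were fitted with limma 3.58.1 in R 4.3.3 (lmFit, eBayes, no covariate), with two-sided tests, Benjamini-Hochberg adjustment over all of them and a threshold of 0.05. The code was checked on simulated data with known changes. Precision is limited by the 3 arrays per group.

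The members, the marker and pathway lists and the alternatives were chosen with earlier results of these data known. Named were members past the threshold on any probe, the 3 of highest signal in each family, a fixed set of neuronal factors, and up to 4 called genes of each pathway list. The labels name no pairing by replicate number. Correlations of same-numbered deviations were 0.08, -0.16 and -0.35, which with 3 arrays a group cannot exclude a pairing. The normexp alternative used median spot signals. Promoters were searched in the RefSeq table by exact letters.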

Additional observations from a re-analysis of the deposited data

How the results depend on the processing

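Against 2 rises and 5 falls, quantile normalization gave 2 and 0, scaling to the median 1 and 0, the percentile over probes above background on all arrays 2 and 1, and no filter on dim probes 0 and 0. A prior with trend and robustness gave 2 and 11, array weights 4 and 22, and every probe on its own 7 and 7. Over all 25304 entries that prior gave 1717 rises and 3651 falls, and array weights 2712 and 6726. With the slide as a fixed block there were 0 and 0, and as a random block 1 and 2. Leaving out each replicate in turn gave 0 to 1 rises and 0 to 4 falls. With the replicate number as a block there were 0 and 0, and over all entries 270 rises and 25 falls. No label pairs the samples by these numbers. The 7 calls kept their sign in all 21 alternatives. The members' median minus that of all entries (-0.13) was -0.056 with normexp and -0.061 with quantile normalization, with 31 and 30 members below the median of all entries in place of 39. It ran from -0.17 to -0.086 without a replicate. Of all pairs 21.7% passed with normexp and 23.1% after quantile normalization. With the slide and the replicate number as a block the shares were 10.6% and 15.3%, and 14.9% to 26.8% without a replicate. The members' 12 probe pairs became 9 with normexp, and 9 after quantile normalization, of which 8 were among the 12. They became 1 with the slide as a block, 7 with the replicate number as a block, and 4 to 11 without a replicate. The rises and falls over all entries (1580 and 2654) were 896 and 590 with no filter, 2712 and 6726 with array weights and 608 and 163 with the slide as a fixed block. The falls alone were 4735 with normexp, 1325 after quantile normalization, 1028 with the median, 1104 with the other percentile and 1770 with the slide as a random block. Without a replicate they ran from 644 to 1867 rises and from 211 to 2539 falls, with 670 and 211 without phenobarbital replicate 2 and 644 and 245 without control replicate 1. The cause of these differences was not tested.

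Signs turned only for members that did not pass. Celf4 became 0.10 with normexp, 0.16 with quantile normalization, 0.020 with the median, 0.068 with the other percentile, 0.081 with array weights, 0.11 and 0.018 with the slide as a fixed and a random block, and ran from -0.090 to 0.051 without a replicate. Qk became 0.043, 0.11 and 0.030 with normexp, quantiles and the other percentile, 0.069 with the mean of its probes, and ran from -0.21 to 0.072 without a replicate. Srsf3 became 0.025 with normexp, 0.13 with quantiles and 0.12 with the mean of its probes. With quantiles Elavl1 became 0.043, Hnrnph1 0.037 and Hnrnpa3 0.074. With the mean of their probes Hnrnpa1 became 0.034, Hnrnpab -0.18, Hnrnpc 0.27, Rbfox3 0.19 and Nova1 0.40, and Nova1 ran from -0.62 to 0.016 without a replicate. With the slide block Nova2 became 0.025, Ptbp1 -0.051 and Srrm2 -0.044, and with array weights Ptbp1 became -0.044 and Srrm2 -0.018.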

Other observations

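The arrays of a group did not contribute evenly to the members' values. Phenobarbital replicate 3 was the lowest of the 3 phenobarbital arrays for 29 of the 52 members, against 13 for replicate 1 and 10 for replicate 2. Control replicate 2 was the lowest control array for 23 members, control replicate 3 for 19 and control replicate 1 for 10. Hnrnpd shows the first pattern in full, with 5.81, 5.83 and 5.12 on the phenobarbital arrays and 6.31, 6.12 and 6.14 on the control arrays (-0.60 ± 0.21, SE, limma, adjusted p = 0.0932). Hnrnpd was named here after its values were seen.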
